A study of Drosophila melanogaster with 47 samples.

Results

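The genes *ninaD*, *santa-maria*, *ninaB*, *ninaG*, *pinta*, *Pdh*, and *rdhB* serve the supply of the visual chromophore, the light-absorbing molecule that rhodopsins carry. They were chosen by symbol, as the genes of carotenoid uptake and of the retinoid cycle, and are 7 of the 17137 genes listed in the deposited counts. All 7 passed the filter on low counts, which kept 11027 genes. Their values are given here in every genotype and at every time point of the series.

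Flies cannot make carotenoids and obtain them from food. Scavenger receptors of class B bring carotenoids into cells, and an oxygenase cleaves them into the retinal from which the chromophore, 3-hydroxyretinal, is made. The chromophore is later regenerated through the pigment cells of the retina, where dehydrogenases and a retinoid-binding protein act on it. Fly eyes and glia hold circadian clocks, and the fly head is the tissue in which the levels of clock-controlled transcripts are commonly followed over the day.

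The libraries were made from head poly(A) RNA of both sexes, after 4 d of 12 h light and 12 h dark cycles at 25 °C. Flies were taken every 4 h from ZT2 to ZT22, with lights on at ZT0 and off at ZT12. The control was the *yw* strain. The strains *tim_up126*, *tim_up122*, and *tim_up10* were homozygous for CRISPR deletions in the upstream regulatory region of the clock gene *timeless* (*tim*), and *tim_in24* for a deletion in its intron. All 4 deletions remove an E-box, the DNA motif bound by the clock activators CLK and CYC, and an E-box was recreated by the repair in *tim_up126*. *tim_up126* and *tim_up122* were made with tandem guide RNAs, and *tim_up10* and *tim_in24* with a single one. The counts cover 11 libraries of *yw*, 12 each of *tim_up126* and *tim_up122*, and 6 each of *tim_up10* and *tim_in24*. There were 2 libraries per time point in the first 3 strains, except for 1 at ZT18 in *yw*, and 1 per time point in the other 2 strains. Replicates are described as biological, but the age of the flies and what separates replicates are not given in the sources used here, so p-values measure the spread between these libraries. The comparisons over the day fit each strain and time point separately, so *tim_up10* and *tim_in24* add no spread of their own. Their standard errors and p-values there use the spread within the groups of 2 libraries in the other strains. Each deletion is represented by 1 homozygous line, so that the deletion and any other difference between the lines cannot be told apart.

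Levels are CPM, counts scaled to a common library total with edgeR's TMM factors. Library totals ran from 1761896 to 10230355 counts with a median of 4791932, and the lowest count of any of the 7 genes in any library was 11. *tim* itself checked the strain labels. Its log2 fold change against *yw* over the day was -2.20 in *tim_up126*, -1.05 in *tim_up122*, and -0.88 in *tim_up10*, all called by edgeR, and -0.06 in *tim_in24*, which was not called. Markers of the head were present, with summed levels of 22056 to 41703 CPM for 12 photoreceptor genes, and 5 digestive protease genes of the gut had summed levels with medians of 0 to 0.108 CPM in the 5 strains, with highest libraries of 216 CPM in *yw* and 208 in *tim_up126*. The 2 libraries labelled *yw* ZT22 stood apart from each other, with 1534 and 448 CPM of *tim*. Replicate 1, with 1534 CPM of *tim* and 643 of *Pdh*, was near the *yw* ZT18 library (1488 and 636). Replicate 2, with 448 and 1505 CPM, was near the *tim_in24* ZT22 library (448 and 1344). Whether a time label is wrong was not tested. Both were kept, and each call or fold change below that turned on them is also given without them. Peak times were fitted with both only.

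To compare different genes, levels were divided by exon length. This takes reads to cover whole transcripts, which was not tested. Reads in exons shared with other genes, such as 37.6% of the exon length of *Pdh*, could not be set apart. The median over the 47 libraries was 894 CPM per kb of exon for *Pdh*, 76.0 for *rdhB*, 51.2 for *pinta*, 44.3 for *ninaB*, 25.9 for *ninaG*, 24.6 for *santa-maria*, and 19.3 for *ninaD*. *Pdh* was at 531 to 1654 CPM per kb and overlapped no other member, since the highest value among the rest was 114 in *rdhB*. Each of the other 6 overlapped its neighbours in this order.

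**Figure D1:**
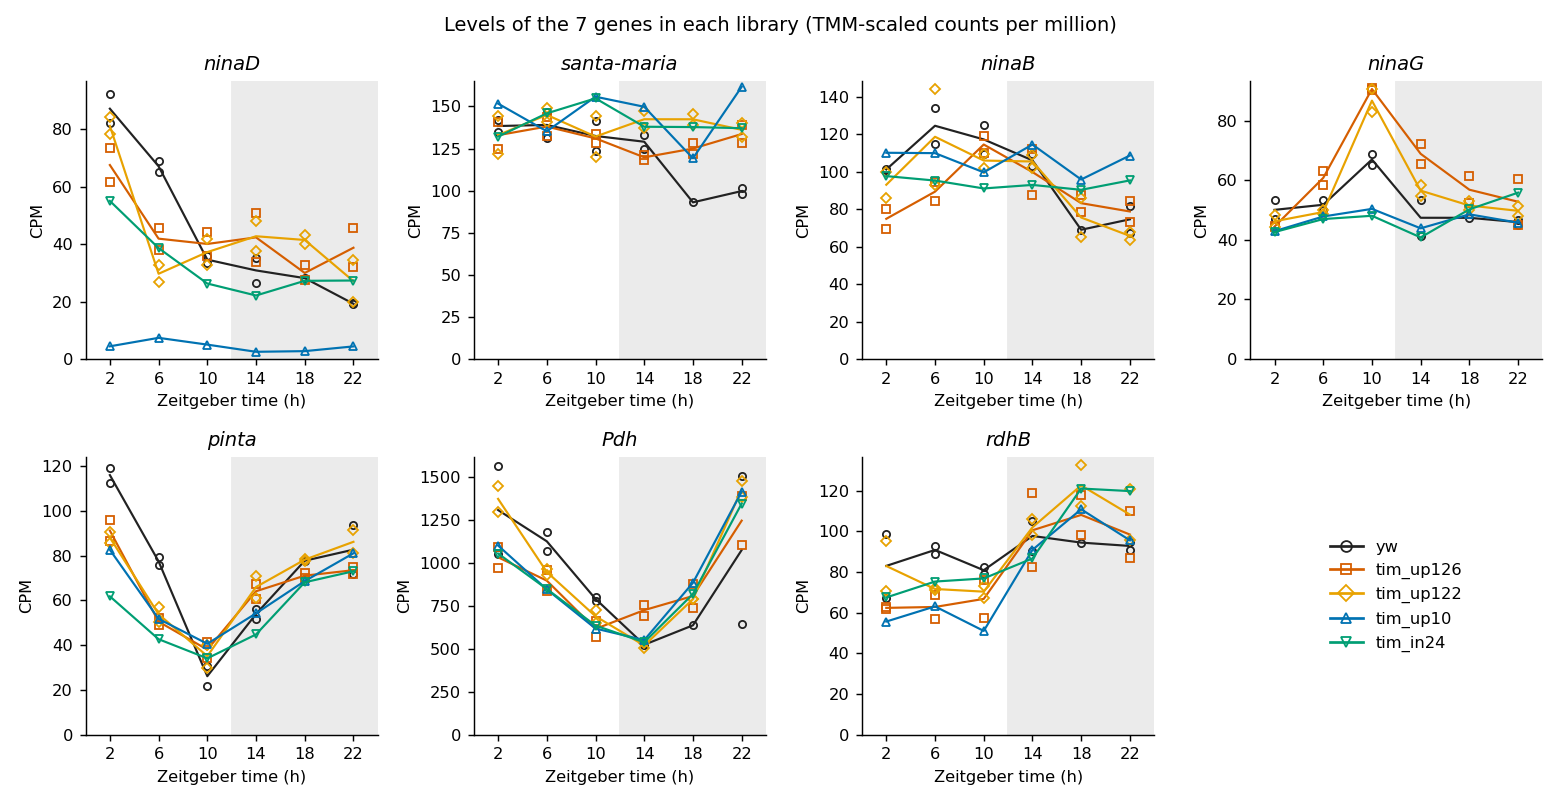
Level of each of the 7 genes (y axis, CPM after TMM scaling) in each of the 47 libraries against Zeitgeber time (x axis, h). Points are libraries, lines join the means at each time point, colours are the 5 strains and the grey area is the dark phase. *ninaD* in *tim_up10* lay between 2.54 and 7.40 CPM at all 6 time points, below every other library, and *pinta*, *Pdh*, and *rdhB* followed similar daily courses in the deletion strains.

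To ask whether the deletion strains differed from *yw* in the average level over the day, the means of the 6 time points were compared with edgeR's quasi-likelihood test, and a gene was called at an adjusted p under 0.05. *ninaD*, the carotenoid receptor, was lower in *tim_up10*, and *santa-maria*, the other receptor, was higher in *tim_up122*, *tim_up10*, and *tim_in24*. *ninaG*, a chromophore-modifying enzyme, was higher in *tim_up126*, and *pinta*, the retinoid-binding protein, was lower in *tim_in24*. *ninaB*, *Pdh*, and *rdhB* were called in none of these 4 comparisons. Thus 1 of the 7 genes was called in *tim_up126*, where 25.4% of all genes tested were, and 1 of 7 in *tim_up122*, where 26.2% were. In *tim_up10* 2 of 7 were called against 23.4% of all genes, and in *tim_in24* 2 of 7 against 25.5%. The shares among the 7 were therefore near or below those of all genes. The 4 comparisons share the *yw* libraries and are not independent of each other. Of the genes called, 47.8%, 48%, 47.6%, and 48.5% were higher in *tim_up126*, *tim_up122*, *tim_up10*, and *tim_in24*, and with plain library totals in place of TMM scaling these shares were 32.4%, 35.9%, 18.4%, and 30.4%. With library totals, which put the median of all genes at -0.17 in *tim_up10* and -0.10 in *tim_in24*, 5 of the 7 genes were called in *tim_up10* and 4 in *tim_in24*. Of all 11027 genes tested, 4143 and 3386 were called under this scaling. The members so added were *ninaG* (-0.27), *pinta* (-0.23), and *rdhB* (-0.39) in *tim_up10*, and *ninaD* (-0.38) and *ninaG* (-0.19) in *tim_in24*.

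*ninaD* encodes a class B scavenger receptor needed for the uptake of carotenoids, known best from the midgut. The gene (FBgn0002939) is on the plus strand at 2L:18081628-18083608 (dm6), on the same chromosome arm as *tim*. In *yw* it had 82.0 and 92.3 CPM at ZT2, 69.1 and 65.2 at ZT6, 33.3 and 35.9 at ZT10, 35.2 and 26.6 at ZT14, 28.2 at ZT18, and 19.4 and 19.1 at ZT22. In *tim_up10* it had 4.45 CPM at ZT2, 7.40 at ZT6, 5.04 at ZT10, 2.54 at ZT14, 2.77 at ZT18, and 4.42 at ZT22. All 6 *tim_up10* libraries lay below all 41 others, of which the lowest had 19.1 CPM, and the groups did not overlap.

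The *tim_up10* values rest on 11 to 28 counts per library. Their mean was 4.43 CPM against 44.5 in *yw*, or 9.95% of it, and the share ranged from 5.10% at ZT2 to 22.9% at ZT22. The log2 fold change was -3.21 (SE 0.17, adjusted p = 4.9e-13, edgeR). The exact two-sided permutation of genotype labels within time points gave p = 0.00206, the smallest that its 486 splits allow. Of the 1350 genes called lower in *tim_up10*, *ninaD* had the 55th lowest fold change. In heads sequenced in bulk, fewer cells of a type and less RNA per cell cannot be told apart.

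In the other strains *ninaD* had 27.4 to 73.5 CPM (median 41.2) in *tim_up126*, 19.8 to 84.1 (median 38.7) in *tim_up122*, and 22.1 to 55.1 (median 27.3) in *tim_in24*. All 3 ranges overlapped that of *yw*. Their log2 fold changes were 0.13, 0.06, and -0.31 in the same order, and none was called by edgeR (adjusted p = 0.341, 0.737, and 0.0528). The *tim_in24* value was called without *yw* ZT14 replicate 2 (-0.35, adjusted p = 0.0344). Leaving out the only library of a strain at a time point removes that time point from both strains compared. Without ZT18, removed through the *yw* or the *tim_in24* library, the value was -0.36 (adjusted p = 0.0316 and 0.0314). Without *tim_in24* ZT22 it was -0.46 (adjusted p = 0.0102). Other omissions brought it to as little as -0.21 (adjusted p = 0.262). Without both *yw* ZT22 libraries, which also removes ZT22 from both strains, it was -0.47 (adjusted p = 0.0107). The *tim_up126* and *tim_up122* values were then -0.06 and -0.04.

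**Figure D2:**
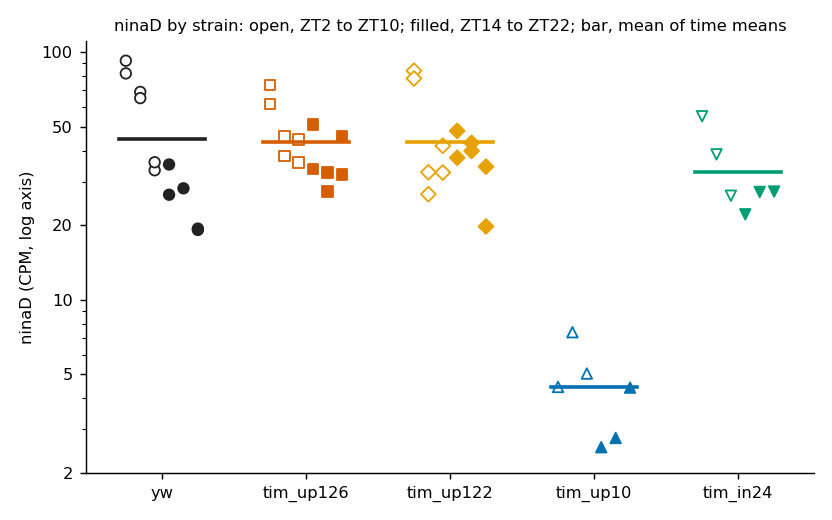
Level of *ninaD* (y axis, CPM after TMM scaling, log axis) in each library of the 5 strains (x axis). Open points are ZT2 to ZT10, filled points ZT14 to ZT22, and bars the mean of the time point means, 44.5 CPM in *yw* and 4.43 in *tim_up10*. The 6 *tim_up10* libraries sit below all others.

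The expressed genes upstream of *ninaD* were higher in *tim_up10*. *Arr1*, an arrestin of photoreceptors that ends 0.32 kb upstream, had a log2 fold change of 0.35 in *tim_up10* (adjusted p = 0.00187, edgeR), and *rdo*, 11.4 kb upstream, one of 0.36 (adjusted p = 0.00048). Of the 5 genes within 20 kb that the counts list, 4 were tested, and these 2 were called, against 23.4% of all genes tested. *Arr1* is also 1 of the 12 photoreceptor genes given below, of which 10 were called higher in this strain. A cause in this region was not tested. CG31741 and CG15153, downstream, had means under 0.1 CPM in *yw* and no count in *tim_up10*, too little for a comparison.

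Some cell type markers moved with *tim_up10* too. The summed level of 6 fat body genes was 12046 to 15907 CPM in its libraries and 5520 to 11529 in *yw*, without overlap, and 4 of the 6 were called higher and none lower. The 4 female-biased genes summed to 53262 to 97658 CPM in *tim_up10* and 25573 to 63995 in *yw*, and of these the yolk protein genes *Yp1*, *Yp2*, and *Yp3* were called higher and *fit* lower (log2 fold change -1.16, adjusted p = 0.00288). The 3 hemocyte genes summed to 300.1 to 336 CPM in *tim_up10* and 194 to 266 in *yw*, without overlap, and *NimC1* alone was called (3.28, adjusted p = 1.88e-15). Of 6 glial genes, *repo* alone was called, lower (-0.29, adjusted p = 0.00112), and their sums overlapped. Of the 12 photoreceptor genes, 10 were called higher and 1 lower. None of 5 neuronal and 2 male-biased genes was called, and of 4 muscle genes 1 was called higher and 1 lower. These counts stand beside 23.4% of all genes tested that were called in *tim_up10*. The part of these markers in the *ninaD* result was not tested. The 5 gut genes were at or near 0, with sums of at most 0.252 CPM in *tim_up10* and a median of 0.108 in *yw*. The highest gut sum was 216 CPM in *yw* and 208 in *tim_up126*.

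*santa-maria* encodes a class B scavenger receptor that acts upstream of NinaB in neurons and glia outside the retina. The gene (FBgn0025697) is on the minus strand at 2L:7445355-7451244. *yw* libraries had 142 and 134.8 CPM at ZT2, 131 and 147 at ZT6, 123 and 142 at ZT10, 133 and 125 at ZT14, 93.1 at ZT18, and 98.0 and 102 at ZT22. *tim_up10* had 152 CPM at ZT2, 135 at ZT6, 156 at ZT10, 149.8 at ZT14, 119 at ZT18, and 162 at ZT22. The groups overlapped, with 4 of the 6 *tim_up10* libraries above all 11 of *yw*.

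*tim_in24* had 132 CPM at ZT2, 146 at ZT6, 155 at ZT10, 138 at ZT14, 138 at ZT18, and 137 at ZT22. *tim_up122* ran from 119.8 to 149 CPM with a median of 140.5, and *tim_up126* from 118 to 144 with a median of 128. In these 3 strains and in *tim_up10*, every library at ZT18 and ZT22 was above the 3 *yw* libraries of those times, and by day the strains overlapped *yw*.

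The log2 fold change over the day was 0.20 in *tim_up122* (SE 0.04, adjusted p = 0.000992, edgeR; exact permutation p = 0.0184), 0.27 in *tim_up10* (SE 0.05, adjusted p = 0.000523; exact p = 0.00617), and 0.22 in *tim_in24* (SE 0.05, adjusted p = 0.00215; exact p = 0.0226). In *tim_up126* it was 0.11 and not called (adjusted p = 0.0697). Without the *yw* ZT18 library, and so without ZT18 in both strains, the *tim_up122* value was 0.12 and no longer called (adjusted p = 0.0581). The *tim_up126* value was called when any of 4 libraries was left out (*yw* ZT6 replicate 2, *yw* ZT10 replicate 2, *tim_up126* ZT2 replicate 1, or *tim_up126* ZT14 replicate 2), with log2 values of 0.12 to 0.13 and adjusted p of 0.0415 to 0.0488. It was 0.05 without *yw* ZT18 (adjusted p = 0.527) and 0.05 without both *yw* ZT22 libraries (adjusted p = 0.581). Without both *yw* ZT22 libraries the values were 0.15, 0.18, and 0.18 in the 3 called strains, all still called (adjusted p at most 0.0374).

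The direction of *santa-maria* depended on the scaling in 2 strains. Scaled instead to *RpL32*, a ribosomal protein gene whose own log2 fold change under TMM scaling was 0.30 in *tim_up10* and 0.27 in *tim_in24*, the median of all genes moved to -0.35 and -0.30, and *santa-maria* was at -0.04 in both strains (adjusted p = 0.782 and 0.767, edgeR). Relative to those medians it was 0.31 and 0.25 higher. In *tim_up122* the value under this scaling was 0.17 and not called (adjusted p = 0.320). The gene also shares 528 bp of its exons, 9.49% of them, with CG5973 on the opposite strand, a CRAL-TRIO gene with a median of 254 CPM. The library kit does not mark strand, so reads of the 2 genes in this stretch cannot be told apart. CG5973 had log2 fold changes of 0.06 in *tim_up122*, 0.12 in *tim_up10*, and 0.16 in *tim_in24*, of which the last was called (adjusted p = 0.0381).

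*ninaB* encodes the oxygenase that cleaves carotenoids and turns the product into the 11-cis form used by rhodopsins. The gene (FBgn0002937) is on the plus strand at 3R:13700565-13703164. In *yw* it had 101 and 101 CPM at ZT2, 134 and 115 at ZT6, 125 and 109.7 at ZT10, 109 and 103 at ZT14, 69.0 at ZT18, and 67.6 and 81.7 at ZT22. *tim_up126* ran from 69.6 to 119 CPM and *tim_up122* from 63.5 to 144, with the lowest time point at ZT2 and ZT22 respectively. *tim_up10* stayed between 95.8 and 114.5 CPM and *tim_in24* between 90.3 and 97.7, so that these 2 strains varied least. The strains overlapped throughout, and the log2 fold changes over the day of -0.11, -0.06, 0.14, and -0.04 (in the order *tim_up126*, *tim_up122*, *tim_up10*, *tim_in24*) were not called.

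*ninaG* encodes an oxidoreductase needed to make the 3S form of the chromophore. The gene (FBgn0037896) is on the minus strand at 3R:11419376-11421693. *tim_up126* libraries had 44.6 and 44.3 CPM at ZT2, 63.2 and 58.3 at ZT6, 90.4 and 90.8 at ZT10, 72.3 and 65.4 at ZT14, 61.3 and 52.3 at ZT18, and 60.4 and 45.1 at ZT22. *yw* had 53.3 and 46.8 CPM at ZT2, 50.1 and 53.4 at ZT6, 65.0 and 68.9 at ZT10, 41.4 and 53.4 at ZT14, 47.4 at ZT18, and 45.1 and 46.8 at ZT22. *tim_up126* was above *yw* at 5 of 6 time points, with 3 of its 12 libraries above all 11 of *yw*.

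The log2 fold change of *ninaG* in *tim_up126* was 0.25 (SE 0.05, adjusted p = 0.000691, edgeR; exact permutation p = 0.00574). It was called whichever single library was left out, and not when scaled to *RpL32* (0.27, adjusted p = 0.101). It was 0.26 without both *yw* ZT22 libraries (adjusted p = 0.00235). In *tim_up122*, which had 90.6 and 82.8 CPM at ZT10 and 44.2 to 58.3 at the other times, the value was 0.11 (adjusted p = 0.128). That value was called without *yw* ZT14 replicate 2 (0.15, adjusted p = 0.0400), and other omissions lowered it to 0.09 (adjusted p = 0.243). *tim_up10* had 42.9 to 50.4 CPM and *tim_in24* 40.8 to 55.8, with log2 fold changes of -0.14 and -0.12, neither called.

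**Figure D3:**
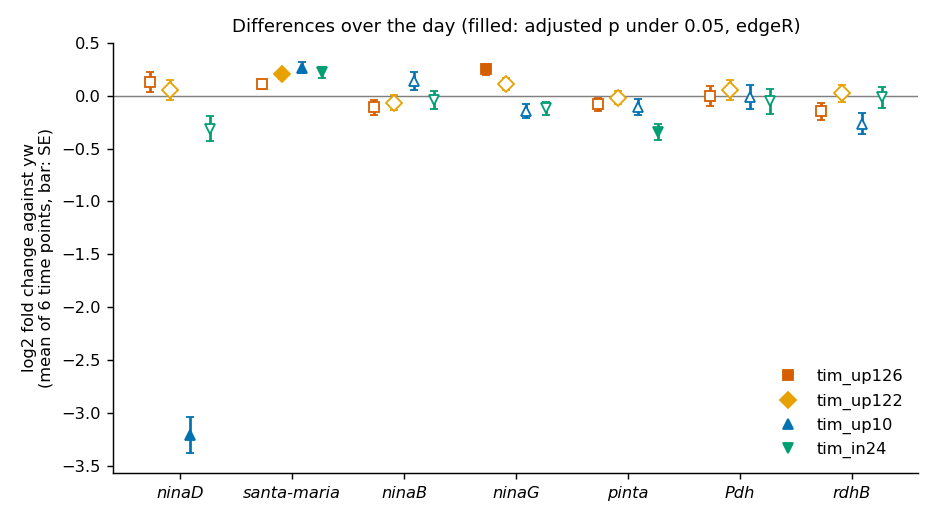
Log2 fold change of each gene against *yw* (y axis, mean of 6 time points, bars are standard errors from edgeR) in the 4 deletion strains. Filled symbols were called at an adjusted p under 0.05. *ninaD* in *tim_up10* stood at -3.21, while the other values lay between -0.34 and 0.27.

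*pinta* encodes a retinoid-binding CRAL-TRIO protein of the retinal pigment cells. The gene (FBgn0038966) is on the minus strand at 3R:22423316-22424929. In *yw* it had 119 and 113 CPM at ZT2, 75.7 and 79.3 at ZT6, 21.7 and 30.6 at ZT10, 56.1 and 51.8 at ZT14, 77.8 at ZT18, and 71.7 and 93.8 at ZT22. *tim_in24* had 61.9 CPM at ZT2, 42.7 at ZT6, 34.2 at ZT10, 44.8 at ZT14, 68.1 at ZT18, and 73.1 at ZT22. It was below the *yw* mean at 5 of 6 time points, with the widest gap at ZT2, and its range lay within that of *yw*.

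The log2 fold change of *pinta* in *tim_in24* was -0.34 (SE 0.08, adjusted p = 0.00155, edgeR; exact permutation p = 0.0473). Without the *tim_in24* ZT2 library, and so without ZT2 in both strains, it was -0.21 and not called (adjusted p = 0.0729). *tim_up126* (34.5 to 95.7 CPM), *tim_up122* (29.9 to 91.4), and *tim_up10* (40.7 to 82.7) had values of -0.08, -0.02, and -0.11, none called. The *tim_up10* value became -0.24 (adjusted p = 0.0400) without *tim_up10* ZT10, and -0.0026 (adjusted p = 1) without *tim_up10* ZT6.

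*Pdh* encodes a retinol dehydrogenase of the pigment cells that takes part in regenerating the chromophore. The gene (FBgn0011693) is on the minus strand at 3L:16353233-16354297. In *yw* it had 1563 and 1049 CPM at ZT2, 1069 and 1180 at ZT6, 776 and 803 at ZT10, 526 and 520.2 at ZT14, 636 at ZT18, and 643 and 1505 at ZT22. The pair at ZT22 lay furthest apart. The deletion strains ran from 502 to 1475 CPM, were lowest at ZT10 or ZT14 and highest at ZT22, and had log2 fold changes of 0.00 (*tim_up126*), 0.06 (*tim_up122*), -0.01 (*tim_up10*), and -0.05 (*tim_in24*), none called.

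The 2 *yw* ZT22 libraries decided part of the *Pdh* values. Without replicate 2 the *tim_up122* value was 0.18 and called (adjusted p = 0.0464), and without replicate 1 it was -0.03. Without both it was -0.02 (adjusted p = 0.928). Of the exon length of *Pdh*, 37.6% (355 bp) is shared with asRNA:CR45894 on the opposite strand, which had a median of 403 CPM and a Pearson correlation of 0.988 with *Pdh* over the 47 libraries. *Tcs3*, also on the opposite strand, shares 54 bp with *Pdh* and had a correlation of 0.886 with it. The library kit does not mark strand, so reads of these genes in the shared stretches cannot be told apart.

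*rdhB* encodes another retinol dehydrogenase of the pigment cells. The gene (FBgn0038946) is on the plus strand at 3R:22351696-22356264, 67.1 kb from *pinta*. In *yw* it had 98.9 and 67.2 CPM at ZT2, 93.0 and 88.9 at ZT6, 82.6 and 79.3 at ZT10, 90.3 and 105 at ZT14, 94.5 at ZT18, and 94.7 and 91.1 at ZT22. *tim_up10* had 55.7 CPM at ZT2, 63.2 at ZT6, 51.1 at ZT10, 91.0 at ZT14, 111 at ZT18, and 95.7 at ZT22. The 3 daytime libraries of *tim_up10* were below all of *yw*, and those of the night overlapped it.

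Over the day, *rdhB* had log2 fold changes of -0.15 (*tim_up126*), 0.03 (*tim_up122*), -0.27 (*tim_up10*), and -0.01 (*tim_in24*), none called. Leaving out single libraries moved the *tim_up10* value between -0.36 and -0.18 (adjusted p = 0.0158 to 0.273). The value (adjusted p = 0.0554, edgeR) passed the threshold when *yw* ZT2 replicate 2, *yw* ZT14 replicate 1, *yw* ZT18, *tim_up10* ZT18, or *tim_up10* ZT22 was left out (log2 -0.36 to -0.28, adjusted p = 0.0158 to 0.0489). The omissions of *yw* ZT18 and of *tim_up10* ZT18 both removed ZT18 from the comparison and are the same omission in effect. The value also passed with a replicate block (-0.29, adjusted p = 0.0401). Without both *yw* ZT22 libraries, which like *tim_up10* ZT22 removed that time point, it passed too (-0.33, adjusted p = 0.0438).

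The 2 strains made with tandem guide RNAs were also compared with each other. None of the 7 genes was called between *tim_up126* and *tim_up122*, where 11.4% of all genes tested were. The 3 genes with an unadjusted p under 0.05 in edgeR's test, which 2664 of all 11027 genes had, were *ninaG* (log2 difference 0.14, adjusted p = 0.0754), *santa-maria* (-0.09, adjusted p = 0.170), and *rdhB* (-0.17, adjusted p = 0.164). *santa-maria* and *rdhB* were lower in *tim_up126* at 6 of 6 time points. The *ninaG* value was called without *tim_up126* ZT22 replicate 2 (0.17, adjusted p = 0.0263), and other omissions lowered it to 0.10 (adjusted p = 0.247).

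To describe day and night, ZT14, ZT18, and ZT22 were compared with ZT2, ZT6, and ZT10, averaged over the 5 strains. The dehydrogenase *rdhB* and the retinoid-binding *pinta* were higher in the dark, and the receptor *ninaD*, the oxygenase *ninaB*, and the receptor *santa-maria* were higher in the light. Thus 5 of the 7 genes were called, against 18.8% of all genes tested, and *ninaG* (-0.08) and *Pdh* (-0.11) were not. The median absolute log2 difference was 0.19 over the 7 genes and 0.09 over all genes tested.

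The log2 difference of dark minus light was 0.56 for *rdhB* (SE 0.06, adjusted p = 1.25e-07, edgeR) and 0.33 for *pinta* (SE 0.05, adjusted p = 8.32e-06). Light and dark libraries of *pinta* overlapped in every strain. In the light, *rdhB* libraries ran from 56.9 to 76.3 CPM (*tim_up126*), 67.5 to 95.2 (*tim_up122*), 51.1 to 63.2 (*tim_up10*), and 67.6 to 76.9 (*tim_in24*). In the dark they ran from 82.5 to 119 CPM, 95.7 to 133, 91.0 to 111, and 86.7 to 121 in the same order. Light and dark libraries of *rdhB* thus did not overlap in the 4 deletion strains. In *yw* they overlapped, with 67.2 to 98.9 CPM in the light and 90.3 to 105 in the dark. Strain by strain, the log2 difference was 0.17 in *yw*, and 0.67, 0.56, 0.80, and 0.56 in the deletion strains, again in this order. The tests of a difference in rhythm from *yw*, given below, were not passed by *rdhB* with the filter on low counts, and were passed in *tim_up126* and *tim_up10* without it.

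*ninaD* was lower in the dark by a log2 value of -0.65 (SE 0.10, adjusted p = 2.16e-05, edgeR), *ninaB* by -0.19 (SE 0.05, adjusted p = 0.00861), and *santa-maria* by -0.11 (SE 0.03, adjusted p = 0.0201). The *ninaD* difference had the same sign in each strain, from -1.19 in *yw* to -0.31 in *tim_up122*. For *ninaB* it was -0.48 in *yw* and -0.38 in *tim_up122*, and between -0.08 and -0.01 in the other 3 strains. *santa-maria* had -0.36 in *yw* and values from -0.09 to 0.04 in the deletion strains, and its call was lost without *yw* ZT18 (-0.09, adjusted p = 0.0610) or without *tim_up10* ZT18 (-0.08, adjusted p = 0.0980). *Pdh* was called without *yw* ZT22 replicate 2 (-0.16, adjusted p = 0.0168) and without both *yw* ZT22 libraries (-0.17, adjusted p = 0.0134).

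**Figure D4:**
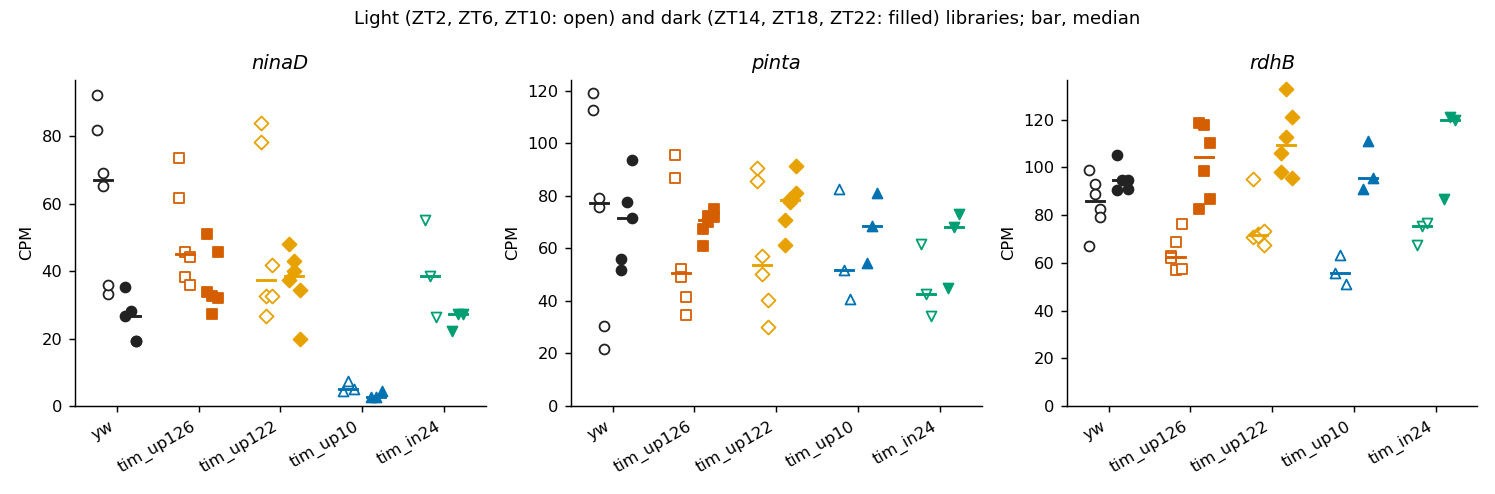
Levels (y axis, CPM after TMM scaling) of *ninaD*, *pinta*, and *rdhB* in light libraries (ZT2 to ZT10, open points) and dark libraries (ZT14 to ZT22, filled points) of each strain, with medians as bars. *rdhB* libraries of light and dark were separate in the 4 deletion strains, with gaps such as 51.1 to 63.2 against 91.0 to 111 CPM in *tim_up10*, and overlapped in *yw*.

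A 24 h rhythm was tested within each strain as a cosine and a sine. The dehydrogenase *Pdh* and the retinoid-binding *pinta* were called rhythmic in all 5 strains, *rdhB* in the 3 upstream deletion strains, *ninaB* in *yw*, *tim_up126*, and *tim_up122*, *ninaG* in *tim_up126* and *tim_up122*, and *ninaD* and *santa-maria* in *yw*. In *yw* 5 of the 7 genes were called, against 15.4% of all genes tested. In *tim_up126* 5 of 7 were called against 6.01%, and in *tim_up122* 5 of 7 against 7.29%. In *tim_up10* 3 of 7 were called against 2.44%, and in *tim_in24* 2 of 7 against 1.15%. *tim_up10* and *tim_in24* have 6 libraries each against 11 or 12 in the other strains, so fewer calls alone do not show weaker rhythms. Fitted log2 amplitudes of *ninaB* were 0.039 in *tim_up10* and 0.047 in *tim_in24*, against 0.40 in *yw*. Those of *santa-maria* were 0.054 and 0.082, against 0.26, and of *ninaG* 0.055 and 0.11, against 0.21. Uncalled amplitudes were larger for *ninaD* (0.67 and 0.56, against 0.93) and for *rdhB* in *tim_in24* (0.40, against 0.11). The *ninaB* difference from *yw* was not called in the test given below, and was called without the filter on low counts.

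The fitted peaks of the recycling genes fell around the night and early morning. As measured, *pinta* was lowest at ZT10 in every strain, and highest at ZT2 except in *tim_in24*, where it was highest at ZT22. The peak times that follow are those of the fits. *pinta* peaked at ZT23.7 in *yw* and between ZT21.6 and ZT22.4 in the deletion strains, with fitted log2 amplitudes of 0.75 in *yw* (adjusted p = 0.0100, edgeR) and of 0.50, 0.56, 0.48, and 0.55 in *tim_up126*, *tim_up122*, *tim_up10*, and *tim_in24* (adjusted p = 0.00867, 0.0034, 0.0094, and 0.0133). *Pdh* peaked at ZT2.90 in *yw*, and at ZT23.7, ZT0.775, ZT23.7, and ZT24.0 in the deletion strains in this order, with amplitudes of 0.65, 0.45, 0.72, 0.63, and 0.60 (adjusted p at most 0.0238). The *yw* peak of *Pdh* includes the ZT22 libraries at 643 and 1505 CPM, and its time without either was not fitted. Leaving out *tim_in24* ZT10, ZT14, or ZT18 took away both *tim_in24* calls (adjusted p = 0.0727 to 0.111 for *pinta* and 0.0511 to 0.237 for *Pdh*). In a joint fit of all strains *pinta* was not called in *tim_up10* (adjusted p = 0.373) or *tim_in24* (adjusted p = 0.109). Scaled to *RpL32*, *pinta* was not called in *tim_in24* (0.43, adjusted p = 0.134).

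*rdhB* peaked between ZT17.3 and ZT18.8 in the fits of all 5 strains. Its amplitude was 0.11 in *yw* (adjusted p = 0.554, edgeR) and 0.48, 0.42, 0.53, and 0.40 in the deletion strains in the same order (adjusted p = 0.00183, 0.00102, 0.0147, and 0.180). The *tim_up10* call was lost without *tim_up10* ZT14 (adjusted p = 0.0613) or ZT18 (adjusted p = 0.189), and the *tim_in24* value was called without *tim_in24* ZT2 (0.39, adjusted p = 0.0117). Scaled to *RpL32*, the *tim_up122* amplitude was 0.33 and not called (adjusted p = 0.423).

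The peaks of uptake and synthesis genes that were called fell in the light phase. *ninaD* in *yw* had an amplitude of 0.93 (adjusted p = 0.0116, edgeR) and a peak at ZT5.18. It was not called in the deletion strains, where the amplitudes were 0.36, 0.27, 0.67, and 0.56 (adjusted p = 0.164, 0.693, 0.297, and 0.116, in the order *tim_up126*, *tim_up122*, *tim_up10*, *tim_in24*). Those of *tim_up126* and *tim_in24* were called without *tim_up126* ZT14 replicate 2 (0.49, adjusted p = 0.0250) and without *tim_in24* ZT22 (0.65, adjusted p = 0.0098). *santa-maria* in *yw* had an amplitude of 0.26 (adjusted p = 0.0203) and a peak at ZT7.27, and this call was lost without *yw* ZT6 replicate 2, ZT18, ZT22 replicate 1, or ZT22 replicate 2 (adjusted p = 0.0577 to 0.0925), and without both ZT22 libraries (adjusted p = 0.208).

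*ninaB* peaked at ZT8.02 in *yw* (amplitude 0.40, adjusted p = 0.00145, edgeR), ZT11.2 in *tim_up126* (0.28, adjusted p = 0.0113), and ZT8.71 in *tim_up122* (0.38, adjusted p = 0.0199). The call in *tim_up126* was lost without ZT10 replicate 2 (adjusted p = 0.0622), and that in *tim_up122* without either ZT22 library (adjusted p = 0.0523 and 0.0570). Scaled to *RpL32*, *ninaB* was not called in *tim_up122* either (adjusted p = 0.1735). *ninaG* peaked at ZT11.4 in *tim_up126* (0.41, adjusted p = 0.00398) and ZT11.2 in *tim_up122* (0.33, adjusted p = 0.0489). The *tim_up122* call of *ninaG* was lost in 8 of 12 cases when a single library was dropped (adjusted p up to 0.154). It was also lost with a replicate block (adjusted p = 0.0571) and with *RpL32* scaling (adjusted p = 0.515). In *yw* the amplitude of *ninaG* was 0.21 and not called (adjusted p = 0.109), and it was called without *yw* ZT14 replicate 1 (0.23, adjusted p = 0.0260).

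**Figure D5:**
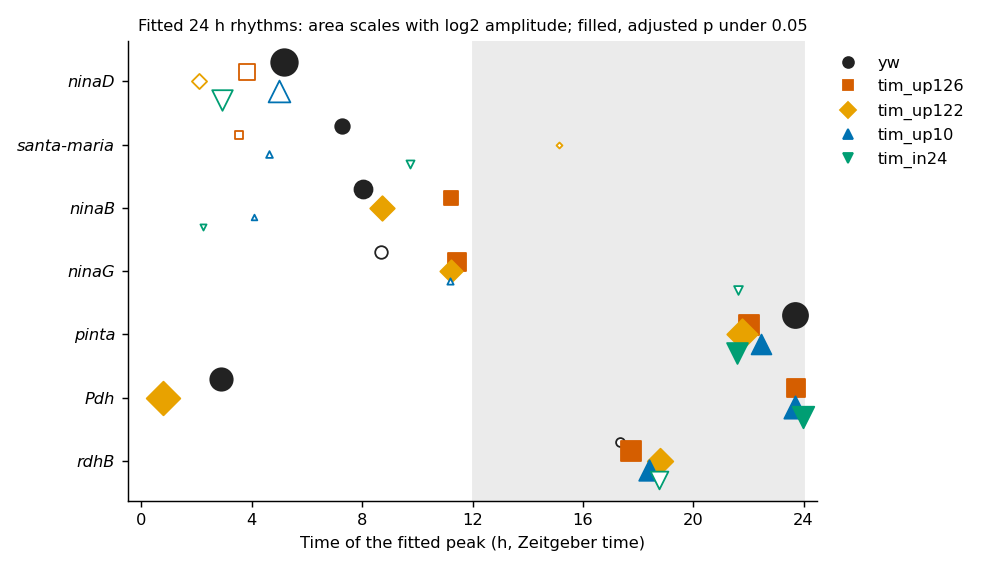
Time of the fitted 24 h peak (x axis, h of Zeitgeber time) of each gene (rows) in each strain. Symbol area scales with the log2 amplitude, filled symbols were called at an adjusted p under 0.05, and the grey area is the dark phase. The fitted peaks of *pinta* and *rdhB* fell in the dark phase in every strain, and the called peaks of *ninaD*, *santa-maria*, *ninaB*, and *ninaG* in the light phase. The highest measured time point of *pinta* was ZT2, in the light, in all strains but *tim_in24*.

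Over all strains together, with 1 common rhythm, 6 of the 7 genes were called against 31.3% of all genes tested. The median log2 amplitude was 0.37 over the 7 genes and 0.09 over all genes tested. The common peaks came in the order *Pdh* (ZT0.791), *ninaD* (ZT4.31), *ninaB* (ZT8.99), *ninaG* (ZT10.9), *rdhB* (ZT18.3), and *pinta* (ZT22.5). *santa-maria* was not called (amplitude 0.08, adjusted p = 0.0575, edgeR), and it was called in 7 of 47 cases when a single library was dropped (adjusted p = 0.0273 to 0.0480).

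The difference in rhythm between each deletion strain and *yw* was tested as an interaction. None of the 7 genes was called in *tim_up126*, where 1.59% of all genes tested were, in *tim_up122* (2.03%), in *tim_up10* (0.118%), or in *tim_in24* (0%). *tim* itself was called in *tim_up126* (adjusted p = 0.0265, edgeR), and not in *tim_up122*, *tim_up10*, or *tim_in24* (adjusted p = 0.127, 0.713, and 0.514). Its fitted log2 amplitude was 2.07 in *yw* and 1.05 in *tim_up122*, so the lack of a call does not show an unchanged rhythm. In *tim_in24* edgeR called 0 of 11027 genes, with 1116 at an unadjusted p under 0.05, and DESeq2 called 25. At an unadjusted p under 0.05 there were 5 of the 7 genes in *tim_up126*, where 1391 of all 11027 genes had one, and 2 of 7 in *tim_up122* (1453 of 11027), *tim_up10* (881), and *tim_in24* (1116). The lowest adjusted p of a member was 0.126 in *tim_up126* (*ninaB*), 0.124 in *tim_up122* (*santa-maria*), 0.298 in *tim_up10* (*ninaB*), and 0.302 in *tim_in24* (*ninaB*). For *rdhB* the adjusted p was 0.164, 0.151, 0.458, and 0.512 in the 4 strains. With no filter on low counts, *rdhB* was called in *tim_up126* (adjusted p = 0.00526) and *tim_up10* (adjusted p = 0.000888), as were *ninaB*, *ninaD*, *pinta*, and *Pdh* in *tim_up126*, *ninaB* and *Pdh* in *tim_up10*, and *ninaB*, *ninaD*, *pinta*, and *Pdh* in *tim_in24*. Among all genes with at least 1 count, 641, 477, and 437 were then called in *tim_up126*, *tim_up10*, and *tim_in24*. *Pdh* was called in *tim_up126* (adjusted p = 0.0230) and *tim_up122* (adjusted p = 0.0272) without *yw* ZT22 replicate 2, and in neither without replicate 1. It was called in neither without both *yw* ZT22 libraries (adjusted p = 0.0538 and 0.135).

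The 7 genes did not follow one shared course. Over the 47 libraries the Pearson correlations between pairs of them ran from -0.51 for *ninaG* and *pinta* to 0.58 for *pinta* and *Pdh*. These libraries share strains, time points, and depth, so the values are descriptions. *ninaD* had a correlation of at most 0.22 with any other member.

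For each member the tested gene with the most similar log2 CPM over the 47 libraries was found, by Pearson correlation. For *ninaD* these were *Cyp28a5*, a cytochrome P450 (0.87), and *GstE1*, a glutathione transferase (0.86). Both were also low in *tim_up10*, with log2 fold changes of -5.40 and -3.25, and over the 41 libraries of the other strains their correlations with *ninaD* were 0.03 and 0.27. For *pinta* they were *t*, which encodes the histamine-recycling enzyme Tan (0.85), and *inaD*, which encodes a photoreceptor scaffold (0.78). For *rdhB* they were *sn*, which encodes the actin-bundling fascin (0.82), and *Rab32*, which encodes a small GTPase (0.80). *Pdh* was closest to asRNA:CR45894, which overlaps it (0.99), and to *Cpr72Ec*, a cuticle protein gene (0.90). *ninaB* was closest to *SREBP*, which encodes a transcription factor of lipid synthesis (0.67), and *Ostgamma* (0.66). *ninaG* was closest to CG10353 (0.86) and CG15784 (0.85), and *santa-maria* to CG13795 (0.77) and *comm3* (0.71).

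Related gene families gave the surroundings of these results over the day. Of 12 other class B scavenger receptors, 9 were called in *tim_up126* (5 higher, 4 lower; 25.4% of all genes), 11 in *tim_up122* (6 and 5; 26.2%), 7 in *tim_up10* (4 and 3; 23.4%), and 7 in *tim_in24* (5 and 2; 25.5%). Those whose larger value in *tim_up126* or *tim_up122* was furthest from 0 were *dsb* (log2 fold change 0.66 in *tim_up126* and 0.81 in *tim_up122*), CG7227 (0.67 and 0.63), and CG2736 (0.53 and 0.45). The called genes that were lower ran from -0.41 to -0.38 in *tim_up126* and from -0.46 to -0.12 in *tim_up122*. Of 20 other CRAL-TRIO genes 16 were tested, and 9 (5 higher, 4 lower), 6 (5 and 1), 7 (4 and 3), and 9 (7 and 2) of these were called in the 4 strains, against the same shares of all genes. CG30339 rose by 2.88 and 2.84 on the log2 scale in *tim_up126* and *tim_up122*, CG31636 by 2.39 and 2.44, and CG33965, whose median was 0.749 CPM, by 1.49 and 3.06. The 4 called lower in *tim_up126* ran from -0.74 to -0.26, and the 1 in *tim_up122* was CG11550 (-0.53), chosen for naming after its value was seen. The median log2 fold change of the tested genes of these lists lay between 0.02 and 0.32 in the 4 strains, and that of all genes between -0.04 and 0.

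Of 5 genes for lipophorins and their receptors, which carry lipids and carotenoids in the hemolymph, 2, 3, 4, and 3 were called in the 4 strains, where 25.4%, 26.2%, 23.4%, and 25.5% of all genes were. *apolpp*, the lipophorin precursor, rose by 0.51 in *tim_up126* and *tim_up122*, and the receptor genes *LpR2* (-0.24 and -0.23) and *LpR1* (-0.17 in *tim_up122*) fell. Of the 7 opsin genes, whose products carry the chromophore, 4, 4, 1, and 5 were called, all higher except for *Rh2* in *tim_up122* (log2 fold change -0.55). *Rh2* (0.53), *Rh5* (0.52), and *Rh3* (0.34) rose in *tim_up126*. *ninaE*, the opsin of the outer photoreceptors, was called in *tim_in24* (0.24, adjusted p = 0.0401, edgeR).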

How the data were processed

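RNA from fly heads was prepared with the TruSeq RNA kit, which does not mark strand, and sequenced on a NextSeq 550. The authors deposited whole-number counts per gene and a table of normalized signal. The study's methods name Tophat and ESAT, whereas the submitters' processing notes list STAR, SAMtools, featureCounts, and DESeq2 with build dm6. Versions and the counting strand are not given in the sources used here. The deposited signal equals the counts divided by 1 factor per library and was used in 1 alternative only. No column was left out.

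Each of the 47 libraries was assigned to its strain and time point from its title. Counts were tested with edgeR 4.0.16 in R 4.3.3: TMM scaling, filterByExpr over the 30 strain and time groups (11027 of 17137 genes kept, 734 had no count), trended dispersion, the quasi-likelihood F test, and Benjamini-Hochberg adjustment over all genes tested. Every adjusted p in the text comes from this test unless another tool is named, and a gene was called at an adjusted p under 0.05. Fold changes over the day average the 6 time points. Rhythms were fitted with 24 h cosine and sine terms. Exact permutation tests moved genotype labels within time points, two-sided, on log2 CPM (prior count 2). One count was worth at most 0.568 CPM. Every member is named, together with the 2 genes whose log2 CPM correlated best with each, and up to 3 genes per related list with the largest changes called in *tim_up126* or *tim_up122*. The members and lists were chosen with earlier results of these data known. Positions are from the Ensembl annotation of the same assembly as dm6, and figures were drawn with matplotlib 3.10.9.

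On simulated counts for 11027 genes, edgeR recovered 189 of 200 genes changed 2-fold between *tim_up126* and *yw* with 8 false calls, and 141 of 200 rhythms of log2 amplitude 0.5 in *yw* with 12 false calls. No 2 libraries of a group differed by as little as sampling noise, with a lowest chi-square of 4.89 per degree of freedom. Alternatives covered scaling, filtering, DESeq2 1.42.0, limma 3.58.1 on the deposited signal, a replicate block, other sample sets, a joint rhythm fit, and each library left out in turn. In comparisons of 2 strains over the day, a time point left without a library in either strain was dropped from both. Leaving out both *yw* ZT22 libraries was added after seeing the data.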

Additional observations from a re-analysis of the deposited data

How the results depend on the processing

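Of 465 counts of called members under alternatives, 435 stayed within 1.5 times the main count. For *tim_up126* over the day, 2 members were called instead of 1 with median-of-ratios size factors, with a filter of 1 CPM in 12 libraries, with only the 2 genotypes in the fit, and with limma on the deposited signal. With *RpL32* scaling the counts were 0 in *tim_up126*, 0 in *tim_up122*, 4 in *tim_up10*, 3 between dark and light, 2 for the rhythm in *tim_up122*, and 1 for that in *tim_in24*, and the share of called genes that were higher was 6.42% in *tim_up10*, 9.70% in *tim_in24*, 36.9% in *tim_up122*, 24.3% between dark and light (45.2% under TMM), and 70.4% between *tim_up126* and *tim_up122* (51.2%). With library totals they were 5 in *tim_up10* and 4 in *tim_in24*, where 4143 and 3386 of all genes tested were called. With no filter, 5, 3, and 4 members had a called rhythm difference in *tim_up126*, *tim_up10*, and *tim_in24*, where 641, 477, and 437 of all genes had one. The joint rhythm fit did not call *pinta* in *tim_up10* (adjusted p = 0.373) or *tim_in24* (adjusted p = 0.109), and called *rdhB* in *tim_in24* (adjusted p = 0.0476). Leaving out single libraries gave 1 to 2 members in *tim_up126*, 0 to 2 in *tim_up122*, 1 to 3 in *tim_in24*, and 0 to 1 between *tim_up126* and *tim_up122*, 3 to 5 for the rhythm in *tim_up122*, 0 to 3 for that in *tim_in24*, and 0 to 1 for the rhythm differences of *tim_up126* and *tim_up122*. Among values called under at least 1 setting, those that changed sign were *santa-maria* with *RpL32* scaling (-0.040 in *tim_up10* and -0.045 in *tim_in24*) and *Pdh* in *tim_up122*, at -0.016 without both *yw* ZT22 libraries and between -0.026 and 0.18 when single libraries were left out. Values called under no setting crossed 0 as well, such as *ninaD* without both *yw* ZT22 libraries (-0.06 in *tim_up126* and -0.04 in *tim_up122*) and *ninaB* in *tim_up10* with *RpL32* scaling (-0.17 against 0.14). The cause was not tested. Over the 17 groups of 2, the deviations of same-numbered libraries from their group means had correlations from -0.228 to 0.324, with all strains pooled. This does not exclude a difference between replicate numbers within a strain. *RpL32* was higher in replicate 2 at every time point of *tim_up122* (723 against 381 CPM at ZT10), and in replicate 1 at every time point of *tim_up126*. The replicate block in the comparisons over the day was shared by all strains and cannot remove a difference that is opposite between strains. With a replicate block, 3 members were called in *tim_up10* (2 without it) and 4 were rhythmic in *tim_up122* (5 without it), and the other counts were the same.

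Counts of all genes called moved by more than 1.5 times as follows. With *RpL32* scaling they were 1359 (2800 under TMM) in *tim_up126*, 1475 (2892) in *tim_up122*, 4826 (2578) in *tim_up10*, 388 (1259) between *tim_up126* and *tim_up122*, 856 (2078) between dark and light, 223 (804) for the rhythm in *tim_up122*, 2143 (3447) for the common rhythm, and 101 (175) and 48 (224) for the rhythm differences of *tim_up126* and *tim_up122*. Library totals gave 4143 in *tim_up10*. A joint rhythm fit gave 1276 (804) in *tim_up122*, 162 (269) in *tim_up10*, and 440 (127) in *tim_in24*. For the rhythm differences of *tim_up126*, *tim_up122*, *tim_up10*, and *tim_in24*, edgeR called 175, 224, 13, and 0 genes, DESeq2 300, 436, 46, and 25, and edgeR without a filter 641, 468, 477, and 437. The joint fit gave 348, 20, and 5 in the last 3 of these, and the 1 CPM filter 8 and 1 in the last 2. No filter gave 1590 rhythmic genes in *tim_up122*. Without both *yw* ZT22 libraries, 1011 (1694) genes were rhythmic in *yw*, and 111, 134, and 1 differed in rhythm in *tim_up126*, *tim_up122*, and *tim_in24*. Single libraries moved the rhythm calls in *tim_in24* from 127 to between 34 and 589, those in *tim_up10* from 269 to between 160 and 331, and the rhythm differences to 69 to 233, 78 to 302, 0 to 18, and 0 to 3 in the 4 strains. In *tim_up10* and *tim_in24*, with 1 library per time point, a single library is the whole value of its time point, and *ninaD* in *tim_up10* rests on 11 to 28 counts per library.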
